A study of Drosophila melanogaster and Drosophila simulans with 122 samples.

Results

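The X-linked genes of *Drosophila melanogaster* and *D. simulans* were followed through spermatogenesis in single germ cell cysts and in whole testes. Members were all genes that the deposited expression tables place on the X chromosome, 2691 of 17875 genes in *D. melanogaster* and 2339 of 15386 genes in *D. simulans*. They were compared with the genes of the autosomal arms 2L, 3L and 3R, 11228 in *D. melanogaster* and 9618 in *D. simulans*. These are the autosomal genes below, and arm 2R was not part of them. No expression value was used to choose them. In *D. melanogaster*, 2172 of the X genes (80.7%) are annotated as protein-coding, 372 (13.8%) as non-coding RNA genes and 74 (2.75%) as pseudogenes. The *D. simulans* genes carry identifiers without names.

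Messenger RNA was sequenced in 5 fly lines that differ at mir-983, an X-linked microRNA gene. Cysts came from mated males 2 to 3 days after eclosion and were picked at 4 stages: spermatogonia (SG), primary spermatocytes (pSC), round spermatids (rST) and elongating spermatids (eST). Testes were from males 3 to 5 days after eclosion. The *D. melanogaster* knockout (KO) lacks both mir-983-1 and mir-983-2, deleted by CRISPR in the w1118 background, and contributed 4 SG, 5 pSC, 6 rST and 6 eST cysts. The replacement line carries 1 *D. simulans* mir-983a at the place of the deleted pair, and contributed 5 cysts per stage. *D. melanogaster* wild type (WT), the w1118 line, contributed 6 SG cysts and 5 of each later stage. The *D. simulans* KO of mir-983 contributed 6, 5, 6 and 6 cysts in stage order, and *D. simulans* WT contributed 6, 5, 5 and 6. Each line also had 3 testis libraries, each from testes pooled over many males. Each genotype is a single line, the RNA of a cyst was amplified before sequencing and that of testes was not, so cysts and testes are set side by side without a test. Library totals ran between 12980169 and 26870894 counted reads. mRNA libraries hardly report the targeted microRNA: the mir-983-1 precursor was above 0 FPKM in 0 of 24 KO, 0 of 23 replacement and 2 of 24 WT libraries of *D. melanogaster*, and its highest value was 0.119.

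A *Drosophila* male has 1 X and 1 Y. In somatic cells the MSL complex, a histone acetyltransferase complex that the roX RNAs guide to the X, raises transcription of the single X, while germ cells of the testis are thought to lack that complex. A spermatogonium divides into a cyst of joined cells that grow as spermatocytes, when much of the RNA for later stages is made, and then pass through meiosis. Transcription is low in spermatids, and although a spermatid inherits either the X or the Y, the cells of a cyst share products through bridges. How far the X is expressed below the autosomes in these stages is a long-standing question in the fly germline.

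A doubtful library, the *D. simulans* KO cysts and the markers of cell types and stages need a remark before the comparisons between stages. Genes that separate *D. simulans* KO from WT testes placed WT SG replicate 2 at a log2 score of -1.87, among the KO SG cysts (-2.02 to -0.56) and away from the other WT SG cysts (-5.42 to -3.92), so the main values that rest on it are also given without it. The other *D. simulans* WT cysts of all stages scored -6.76 to -3.92, near WT testes (-5.72 to -5.43). All *D. simulans* KO cysts scored -2.02 to 0.99, far below KO testes (5.44 to 5.62). *D. melanogaster* KO cysts, scored on genes from their own testes, lay at 3.16 to 7.33 beside KO testes at 6.31 to 6.62. Why the *D. simulans* KO cysts lay apart was not tested. The 5 accessory gland genes of the marker list encode seminal fluid proteins. In *D. melanogaster* WT they summed to between 300 and 1533 FPKM in SG cysts against 5.92 to 15.4 FPKM in pSC cysts and 6.25 to 7.31 FPKM in testes. Among them Acp98AB reached 245 to 1205 FPKM in WT SG cysts and was 0 in every WT testis library. At pSC relative to SG 4 of the 5 fell, beside 16.1% of all genes. The exception was Acp36DE, at -0.00, which fell at eST relative to rST. Outside SG, only 1 of the 5 reached 1 FPKM in any WT library of each later stage and of testes. The SG cysts also held the labelled germ cell genes: summed SG markers (aub, bam, zpg, vas, nanos) were 67.2 to 384 FPKM in SG cysts against 7.54 to 18.3 FPKM in pSC cysts. They held markers of later stages too. The 5 pSC markers (tbrd-1, can, sa, fzo, twe) summed to 284 to 455 FPKM in SG cysts against 411 to 657 FPKM in pSC cysts. None of these 5 was called at pSC relative to SG, where their median log2 change was 0.78. The 7 spermatid markers summed to 1102 to 1857 FPKM in SG, 1793 to 3169 in pSC, 2808 to 4339 in rST and 3806 to 8400 in eST cysts. Muscle genes (8) summed to 53.4 to 129 FPKM in WT SG cysts, against 10.9 to 191 FPKM (median 13.3) in pSC cysts. The 3 cyst cell genes, of the somatic cells that enclose a cyst, summed to 9.24 to 21.5 FPKM in SG, 6.87 to 27.2 in pSC, 2.58 to 6.5 in rST and 2.71 to 5.62 in eST cysts, where tj fell at pSC and eya and zfh1 fell at rST. The 3 hub genes, of the somatic niche, summed to 4.56 to 7.42 FPKM in SG, 3.66 to 9.21 in pSC, 5.5 to 14.4 in rST and 14.6 to 32.3 in eST cysts. All 3 of them (upd1, Fas3 and hh) rose at eST relative to rST. What part these RNAs have in the values of the stages was not tested.

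In WT cysts of both species the typical X gene was expressed below the typical autosomal gene at every stage, and further below it after the spermatogonial stage. Both statements hold for a fixed set of expressed genes and moved with the choice of that set. The measure was the log2 ratio of the median FPKM (fragments mapped to a gene, scaled to its length and to the library total) of X genes to that of autosomal genes in each library. It was taken over 1 fixed set of genes per species, those with a mean of at least 1 FPKM in at least 1 WT stage or in WT testis. The fixed set held 1840 X and 7810 autosomal genes in *D. melanogaster*, and 1735 X and 6864 autosomal genes in *D. simulans*. All 24 *D. melanogaster* WT and all 25 *D. simulans* WT libraries had a ratio below 0.

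In *D. melanogaster* WT the 6 SG cysts had ratios between -0.33 and -0.18, with a median of -0.24. The pSC cysts had -0.30, -0.29, -0.71, -0.89 and -0.38, and so fell into 3 cysts near the SG values and 2 well below them. The rST cysts had -0.57, -0.79, -0.78, -0.91 and -0.73, all below every SG cyst. The eST cysts had -0.75, -0.60, -0.87, -0.53 and -0.47, which overlapped the rST values. The 3 testes lay at -0.29, -0.27 and -0.30, close to the SG cysts. As linear ratios, the median X gene was at 0.84 of the median autosomal gene in SG, 0.71 in pSC, 0.594 in rST, 0.643 in eST and 0.821 in testis (SD 0.0295, 0.128, 0.051, 0.0714 and 0.00902; n = 6, 5, 5, 5 and 3).

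*D. simulans* WT cysts were also highest at SG and lowest at rST on average, but here eST cysts averaged above pSC cysts (-0.62 and -0.86). SG cysts lay between -0.48 and -0.17 with a median of -0.39, and the highest of them was the doubtful replicate 2. Without it the SG mean was -0.41 in place of -0.37. The pSC cysts had -0.83, -1.06, -0.76, -1.08 and -0.56, all below every SG cyst. The rST cysts had -0.93, -0.96, -1.06, -0.94 and -1.06, which put the median X gene at 0.503 ± 0.0228 of the median autosomal gene (SD, n = 5). The eST cysts lay between -0.78 and -0.37 with a median of -0.63, above every rST cyst. The 3 testes had -0.39, -0.41 and -0.45.

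**Figure D1:**
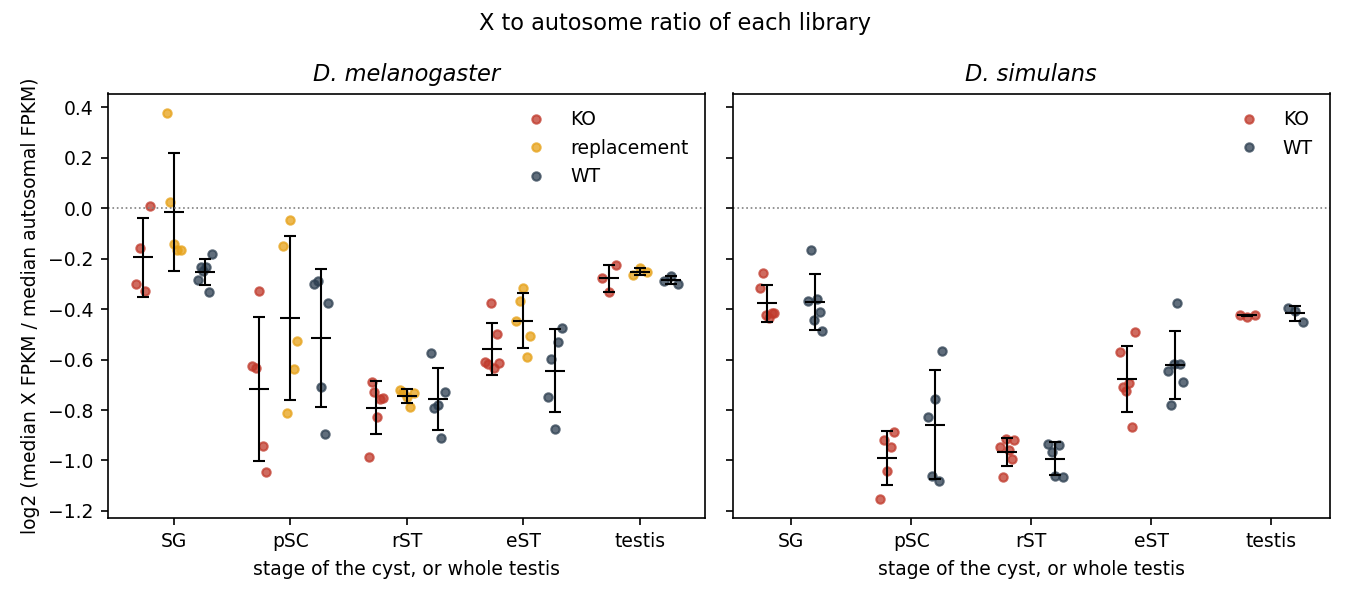
The log2 ratio of the median X to the median autosomal FPKM (y axis) is plotted for each library by stage and for testes (x axis), coloured by line, with the mean and SD over libraries of a group as bars. In both species the WT cysts lie lowest at rST, with means of -0.76 in *D. melanogaster* and -0.99 in *D. simulans*, and the testes lie near the SG cysts.

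Each step between stages was tested with a two-sided exact permutation test over libraries, with Benjamini-Hochberg adjustment over the 15 steps of the 5 lines. From SG onward the ratio fell at pSC in *D. melanogaster* WT by 0.26 (exact p = 0.0087, adjusted p = 0.019), although the groups overlapped. Leaving out any 1 library gave -0.317 to -0.165 and lost the call in 4 of 11 cases. It fell at pSC in *D. simulans* WT by 0.485 (exact p = 0.0022, adjusted p = 0.0065), and without the doubtful SG library the difference was -0.44 (adjusted p = 0.019). The next step, rST minus pSC, was -0.24 in *D. melanogaster* WT (exact p = 0.1, adjusted p = 0.14) and -0.14 in *D. simulans* WT (exact p = 0.25, adjusted p = 0.28), so neither passed. The ratio rose at eST over rST by 0.37 in *D. simulans* WT (exact p = 0.0022, adjusted p = 0.0065), whereas in *D. melanogaster* WT the difference was 0.11 (exact p = 0.25, adjusted p = 0.28). The difference between the species was not tested.

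The same steps were taken in the KO and replacement cysts, which are other libraries. Those of *D. simulans* KO scored apart from the testes of that line, as given above. At pSC the ratio fell in *D. simulans* KO by 0.61 (exact p = 0.0022, adjusted p = 0.0065) and in *D. melanogaster* KO by 0.52 (exact p = 0.024, adjusted p = 0.045), a call that was lost without any 1 of its 9 libraries. In the replacement line the difference was -0.42 (exact p = 0.071, adjusted p = 0.11). The ratio rose at eST over rST in *D. melanogaster* KO by 0.23, in the replacement line by 0.30 and in *D. simulans* KO by 0.29 (exact p = 0.0022, 0.0079 and 0.0022; adjusted p = 0.0065, 0.019 and 0.0065), without overlap between the 2 stages in any of these 3 lines. With genes at 1 FPKM or more in a library the first of these differences was -0.03 and the second -0.09, and with upper quartiles the replacement line missed the threshold (0.14, adjusted p = 0.079). The step of rST minus pSC passed in none of the 5 lines.

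The fall after SG depended on the genes counted. When each library kept only the genes at 1 FPKM or more in it, the step of pSC minus SG was -0.07 in *D. melanogaster* WT (adjusted p = 0.13) and 0.04 in *D. simulans* WT (adjusted p = 0.24). With upper quartiles in place of medians it was 0.05 in *D. melanogaster* WT (adjusted p = 0.41) and -0.34 in *D. simulans* WT (adjusted p = 0.039). It also missed the threshold with no filter on genes in *D. melanogaster* WT (-0.31, adjusted p = 0.13). With no filter the mean ratio of *D. simulans* WT SG cysts was 0.09, the single WT group above 0 under any of these settings. For genes at 1 FPKM or more in a library, rST minus pSC was 0.16 in *D. melanogaster* KO (adjusted p = 0.032), opposite in direction to the fixed set.

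Among WT pSC cysts the ratio was lower where the median autosomal FPKM was lower. The 2 *D. melanogaster* WT pSC cysts with the lowest X ratios, replicates 3 and 4, had median autosomal FPKM of 9.91 and 7.45, against 11.9 to 12.5 in the other 3. Replicates 2 and 4 of *D. simulans* WT pSC, also the lowest in ratio, had 6.77 and 5.98, against 9.82 to 13.9 in the other 3. The median X gene fell along the stages in FPKM as well. It averaged 12.6 in SG, 7.9 in pSC, 3.6 in rST and 2.07 in eST cysts of *D. melanogaster* WT, where the median autosomal gene averaged 14.9, 10.8, 5.96 and 3.19. FPKM is relative to the total of a library, and in testes, which mix all stages with somatic cells, fewer cells of a type and less RNA per cell cannot be told apart.

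The share of X genes that were detected fell as well. Of the genes of *D. melanogaster* WT, 61.2% of X genes and 62.5% of autosomal genes were at 1 FPKM or more in SG cysts, and the shares were 42.5 ± 4.5% of X genes and 48.3 ± 3.67% of autosomal genes in eST cysts (SD, n = 5). In *D. simulans* WT the X led at SG with 66.2 ± 2.33% of its genes against 61.8 ± 2.86% of autosomal genes (SD, n = 6; 67.1% and 62.9% without replicate 2), and lay below at rST with 48.7 ± 1.97% against 54 ± 1.39% (SD, n = 5). In testes 62.4% of X and 61.9% of autosomal genes were detected in *D. melanogaster* and 67.7% and 64.2% in *D. simulans*.

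**Figure D2:**
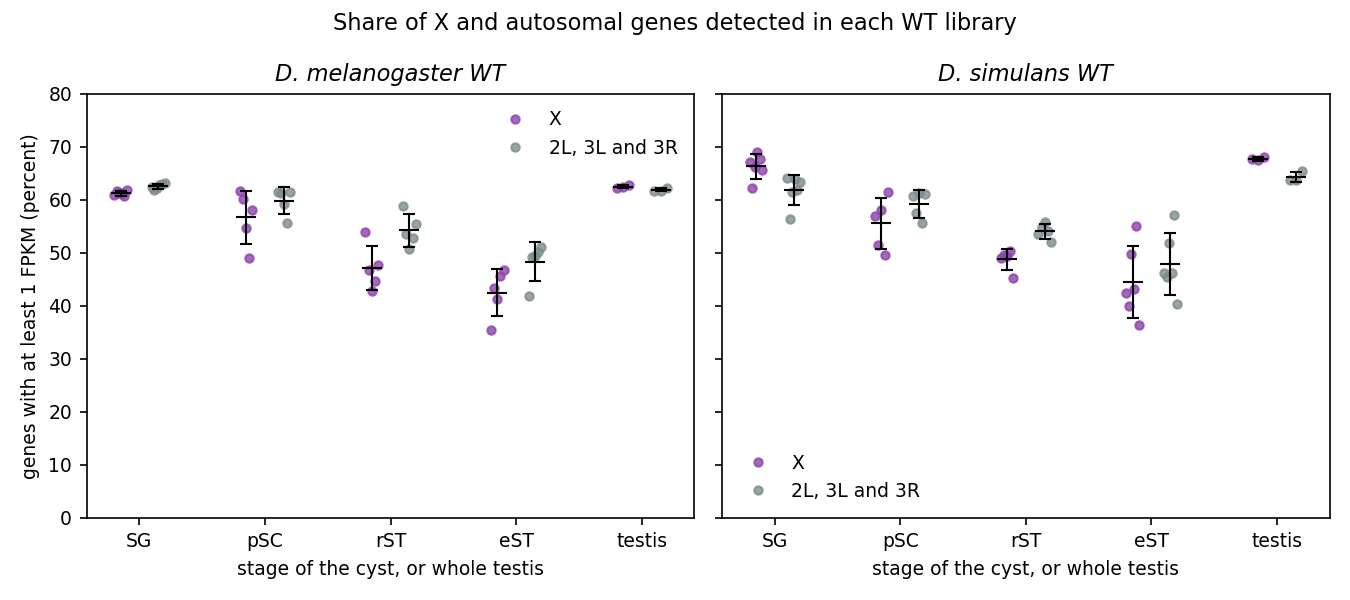
The percentage of X genes (purple) and of autosomal genes (grey) with at least 1 FPKM (y axis) is plotted for each WT library by stage and for testes (x axis), with the mean and SD as bars. The X points lie below the autosomal ones at rST, at 47.1% against 54.2% in *D. melanogaster* and 48.7% against 54% in *D. simulans*, but not in testes.

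Weighted by level rather than by gene, the X carried 13.9 ± 0.644% of the summed FPKM of X, 2L, 3L and 3R in *D. melanogaster* WT SG cysts (SD, n = 6). It carried 12.9 ± 1.34% at pSC, 10.7 ± 0.861% at rST and 10.1 ± 0.481% at eST (SD, n = 5 each), and 12.9 ± 0.208% in testes (SD, n = 3). The share in *D. simulans* WT was 14.2% (14% without SG replicate 2), 12.3%, 10.2% and 11% in stage order and 12.4% in testes. Of the 6 steps tested, only rST minus pSC in *D. simulans* WT passed, with a difference of -2.13 percentage points (exact p = 0.0079, adjusted p = 0.048, no overlap). Leaving out 1 library ended that call in 5 of 10 cases, with differences of -2.55 to -1.59. The same step in *D. melanogaster* WT was -2.26 percentage points (exact p = 0.024, adjusted p = 0.056).

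X genes also differed from autosomal genes in where they peaked. For *D. melanogaster* WT, 51.7% of X genes of the fixed set had their highest mean FPKM in SG cysts, against 43% of autosomal genes, and 9.73% peaked at rST against 15.4%. For *D. simulans* WT 61.7% of X genes peaked in SG cysts, against 50.9% of autosomal genes, and 4.55% peaked at rST against 12%. Leaving out any 1 cyst, with the same set of genes, kept the X share above the autosomal share at SG, by 7.61 to 10.4 percentage points in *D. melanogaster* and 10.3 to 11.2 in *D. simulans*. A gene of X or autosomes could enter that set through the group of its peak alone. The *D. melanogaster* SG cysts also held accessory gland and muscle RNA, as given above. What part either has in these shares was not tested. The shares at pSC (25.3% of X and 26.7% of autosomal genes in *D. melanogaster*) and eST (13.3% and 14.9%) lay closer together.

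None of the arms 2L, 3L and 3R departed as far from the other 2 as the X did from these arms. Arm 2R was not measured. Over *D. melanogaster* WT cysts and testes, the group means of the same ratio for 2L, 3L or 3R over the other 2 arms lay between -0.15 (3R at rST) and 0.11 (2L at pSC). For *D. simulans* WT they lay between -0.19 (3R at rST) and 0.25 (2L at rST). The X means for the same stages were between -0.76 and -0.25 in *D. melanogaster* and between -0.99 and -0.37 in *D. simulans*. Between SG and pSC the autosomal arms moved too. In *D. melanogaster* 3R went from 0.037 to -0.095, 2L from -0.027 to 0.107 and 3L from -0.004 to 0.009, while X went from -0.25 to -0.51. In *D. simulans* 3R went from 0.028 to -0.168, 2L from -0.015 to 0.237 and 3L from -0.031 to -0.017, while X went from -0.37 to -0.86. Along the X, all 5 equal windows of the *D. simulans* chromosome had a median level below the autosomes in each of the 4 stages and in testis. The last *D. melanogaster* window, X:18855125-23538283 in release r6.36, stood at 0.04 in SG, -0.20 in pSC, -0.43 in rST and -0.09 in eST, while the other 4 windows lay between -1.01 and -0.13.

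Gene by gene, WT cysts of a species were compared with edgeR's quasi-likelihood test on read counts, with Benjamini-Hochberg adjustment over all genes. A gene was called where the adjusted p was under 0.05 and the change exceeded 1 on the log2 scale. Of the 2691 X genes of *D. melanogaster*, 2633 were in the read counts. In WT 1996 of these were tested, and the rest had too few reads. Of the 1996, 397 fell and 70 rose at pSC relative to SG. These are 19.9% and 3.51%, against 14.9% and 4.97% of the autosomal genes and a background over all 13253 genes of 16.1% and 4.65%. At rST relative to pSC, 351 X genes fell and 40 rose, 17.6% and 2%, against 11.8% and 7.07% of autosomal genes and a background of 12.8% and 6.14%. At eST relative to rST more X genes rose than fell, 302 and 157, 15.1% and 7.87%, against 11.7% and 11.1% of autosomal genes and a background of 12.3% and 10.1%. This balance depended on the fit: with only the rST and eST cysts in it, 109 X genes rose and 99 fell (5.86% and 5.32%), against 5.24% and 9.7% of autosomal genes, and the X median was -0.04. With a filter of 50 normalized counts 234 rose and 213 fell.

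In *D. simulans* WT, 1961 of 2339 X genes were tested. At pSC relative to SG, 759 fell and 410 rose, 38.7% and 20.9%, against 26.7% and 26.9% of autosomal genes and a background over all 12776 genes of 29.2% and 25.7%. Without the doubtful SG library 753 fell and 393 rose. At rST relative to pSC, 158 X genes fell and 2 rose (8.06% and 0.102%), against 7.78% and 0.602% of autosomal genes and a background of 7.72% and 0.477%. This step thus gave X genes a share of falls close to the background. With only the pSC and rST cysts in the fit, 311 fell and 53 rose (17.2% and 2.93%), against 15.4% and 4.33% of autosomal genes. At eST relative to rST, 256 X genes rose and 153 fell (13.1% and 7.8%), against 7.49% and 12.1% of autosomal genes and a background of 8.48% and 10.9%. With DESeq2 size factors in edgeR 440 rose and 138 fell.

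**Figure D3:**
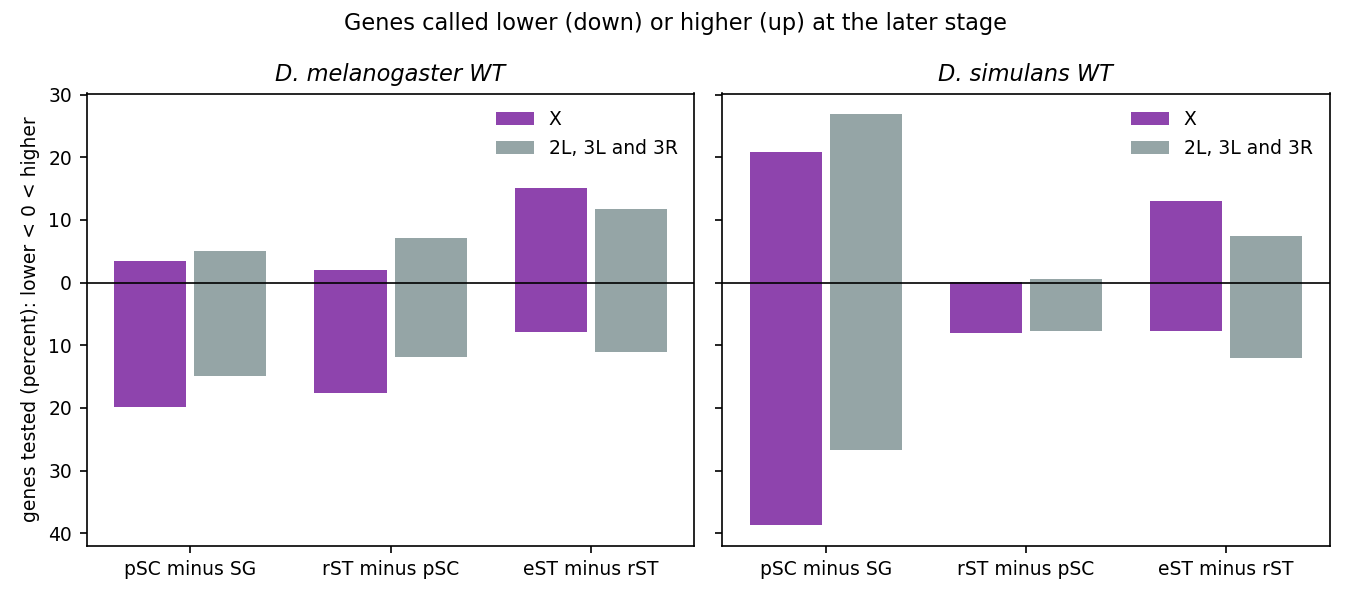
Bars give the percentage of tested X genes (purple) and autosomal genes (grey) called higher (above 0) or lower (below 0) at the later stage of each step (x axis) in WT cysts of each species. At pSC relative to SG the bar of X genes called lower reaches 19.9% in *D. melanogaster* and 38.7% in *D. simulans*, past the autosomal bars at 14.9% and 26.7%.

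The medians over all tested genes give the same order. The median log2 fold change of X genes was -0.09, -0.44 and 0.25 for the 3 steps in *D. melanogaster* WT, against 0.23, -0.13 and 0.07 for autosomal genes. The *D. simulans* WT values were -0.67, -0.13 and 0.43, against 0.25, -0.11 and 0.05, and without SG replicate 2 the first step gave -0.65 against 0.21. These values move with the scaling of the libraries. With DESeq2 size factors in edgeR the median of all genes was 0.30, -0.06 and 0.22 in place of 0.18, -0.17 and 0.12 in *D. melanogaster*, and 0.34, -0.03 and 0.43 in place of 0.08, -0.11 and 0.13 in *D. simulans*. The X median at pSC relative to SG in *D. melanogaster* then turned to 0.03, still below the autosomal 0.36, and the calls at that step became 372 falls and 127 rises. FPKM, scaled to the library total, can give the other direction. In *D. melanogaster* WT the median X gene of the fixed set averaged 3.6 FPKM at rST and 2.07 at eST, and the median autosomal gene 5.96 and 3.19. In *D. simulans* WT the median autosomal gene averaged 17.8 FPKM at SG and 9.37 at pSC. Calls of rises and falls are therefore relative to the scaling of the counts.

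Counts at some steps rested on single libraries. At rST relative to pSC in *D. melanogaster* WT, leaving out 1 library gave 186 to 492 falls and 9 to 88 rises, the lowest of both without pSC replicate 2 and 88 rises without pSC replicate 4. At the same step in *D. simulans* WT it gave 51 to 212 falls and 0 to 4 rises, with 51 falls without pSC replicate 5. The rises at eST relative to rST were 194 to 399 in *D. melanogaster* WT (194 without eST replicate 4) and 167 to 282 in *D. simulans* WT (167 without eST replicate 4).

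The X-linked genes of the protein synthesis machinery fell together at the first step. All 14 X-linked ribosomal protein genes fell at pSC relative to SG in *D. melanogaster* WT, by 1.96 to 3.43 on the log2 scale with a median of -2.41, while the median of all genes was 0.18. Over all genes 16.1% fell at this step. RpS6, a protein of the small ribosomal subunit, had 69.1, 58.5, 20.5, 8.93 and 86.3 FPKM in pSC cysts, against 129 to 484 FPKM in SG cysts (median 453). RpS6 exons overlap another gene, whose reads the unstranded counting cannot separate, and the same holds for Sxl, otu, ovo, nod, mei-9 and unc below. RpL7A, of the large subunit, changed by -3.43 (SE 0.54, adjusted p = 6.6e-05, edgeR with Benjamini-Hochberg adjustment). The autosomal ribosomal protein genes moved alike, with 50 of 55 falling and a median of -2.58, close to the X members. None of the 14 X-linked genes was called in either later step, where their medians were -0.39 and 0.38.

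Regulators of the germline on the X changed one by one. Of 6 such genes, Sxl, the RNA-binding switch of sex determination, fell at pSC (2.94, 3.43, 1.52, 0.805 and 2.84 FPKM in pSC cysts, against 3.08 to 11.6 FPKM in SG cysts) by 2.01 on the log2 scale. Sxl rose again at eST relative to rST by 1.76 (SE 0.41, adjusted p = 0.0035, edgeR with Benjamini-Hochberg adjustment), at levels of 0.686 to 2.42 FPKM in eST cysts against 0.49 to 1.15 FPKM in rST cysts. Between pSC and rST, fs(1)Yb, a Tudor-domain protein of the piRNA pathway, fell by 2.69 and snf, a protein of the U1 and U2 snRNPs, fell by 1.57. Levels of snf were 4.71 to 45.4 FPKM in rST cysts against 12.4 to 135 FPKM in pSC cysts, so the 2 stages overlapped. The TRIM-NHL translational regulator mei-P26 was not called in any step (0.92, -0.34 and -0.91), and otu (0.46, -0.69 and 0.25) and ovo were at low levels throughout. The background over all genes was 16.1% falls at pSC, 12.8% falls at rST and 12.3% rises at eST, each relative to the stage before.

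Genes of the cell cycle, meiosis and cytokinesis on the X were called only as falls. Of 13 tested members of a list of 14 (mei-218 had too few reads), 4 fell and none rose at pSC relative to SG: CycD, the DNA repair nuclease mei-9, the chromosome motor nod and the myosin light chain sqh. The background over all genes at this step was 16.1% falls and 4.65% rises. Nod had 0.0851 to 0.493 FPKM in pSC cysts against 2.1 to 4.75 FPKM in SG cysts, a change of -3.36 (SE 0.49, adjusted p = 3.3e-05, edgeR with Benjamini-Hochberg adjustment). Between pSC and rST another 4 fell: feo, a bundler of spindle microtubules, Rbf, the retinoblastoma protein, mei-9 again and wapl, which releases cohesin, beside a background of 12.8% falls. The values of feo were 19.2, 4.62, 1.16, 1.79 and 2.31 FPKM in rST cysts against 55.6, 61, 56.4, 43.6 and 33.8 FPKM in pSC cysts, without overlap. None of the 13 was called at eST relative to rST.

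Of 9 X-linked genes of motors and centrioles, 1 rose at pSC relative to SG, beside a background of 4.65% rises over all genes. This gene, the axonemal dynein heavy chain Dhc16F, rose by 1.37 on the log2 scale. It had 0.838, 1.02, 1.23, 0.955 and 0.637 FPKM in pSC cysts against 0.174 to 0.631 FPKM in SG cysts, and 6.96 to 10.9 FPKM in testes. Between pSC and rST the dynein light chain ctp fell by 1.24, the basal body gene unc by 2.41 and the dynein intermediate chain sw by 2.00. The background at this step was 12.8% falls. At eST relative to rST 12.3% of all genes rose. The gene sw was among them with a rise of 2.24 in counts, while its FPKM averaged 64.8 in eST and 92.1 in rST cysts. It lies beside the near-identical Sdic copies, so its reads may be shared and its changes are uncertain.

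The histone acetyltransferase mof, the X-linked enzyme of the MSL complex, fell at each of the 3 steps, by 1.36, 1.5 and 1.13 on the log2 scale (adjusted p = 0.01, 0.011 and 0.04, edgeR with Benjamini-Hochberg adjustment). Its FPKM was 7.22 to 16.5 in SG, 1.19 to 6.93 in pSC, 0.571 to 1.56 in rST and 0.0797 to 0.411 in eST cysts, so that SG and pSC did not overlap, nor did rST and eST, while pSC and rST did. The RNAs roX1 and roX2 were not called in any step. In cysts roX1 averaged 2.32, 2.23, 1.02 and 2.17 FPKM in stage order, and it averaged 18.5 ± 2.54 FPKM in testes (SD, n = 3). The autosomal partners msl-1, msl-2 and msl-3 all fell at rST relative to pSC, and msl-2 alone rose, by 2.43, at eST relative to rST. The background over all genes was 16.1%, 12.8% and 10.1% falls in the 3 steps and 12.3% rises at the last.

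Some X genes have a copy on an autosome that is known from testis, and 4 such pairs were followed. On the X, the mitochondrial chaperone Hsp60A fell at pSC by 1.11 and at rST by 1.29, and the proteasome subunit Prosalpha4 fell at pSC by 2.30. Prosalpha4 had 40, 26.7, 7.48, 3.47 and 49.6 FPKM in pSC cysts against 65.4 to 181 FPKM in SG cysts, without overlap. None of the 4 autosomal copies was called at pSC relative to SG, where 20.7% of all genes were called and 16.1% fell. The median of the copies at this step was 0.57 against -1.27 for the 4 X genes. Of the copies, Prosalpha4T1 fell at rST relative to pSC, and at eST relative to rST Ntf-2r fell and Hsp60B rose. The difference between the pairs was not tested.

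**Figure D4:**
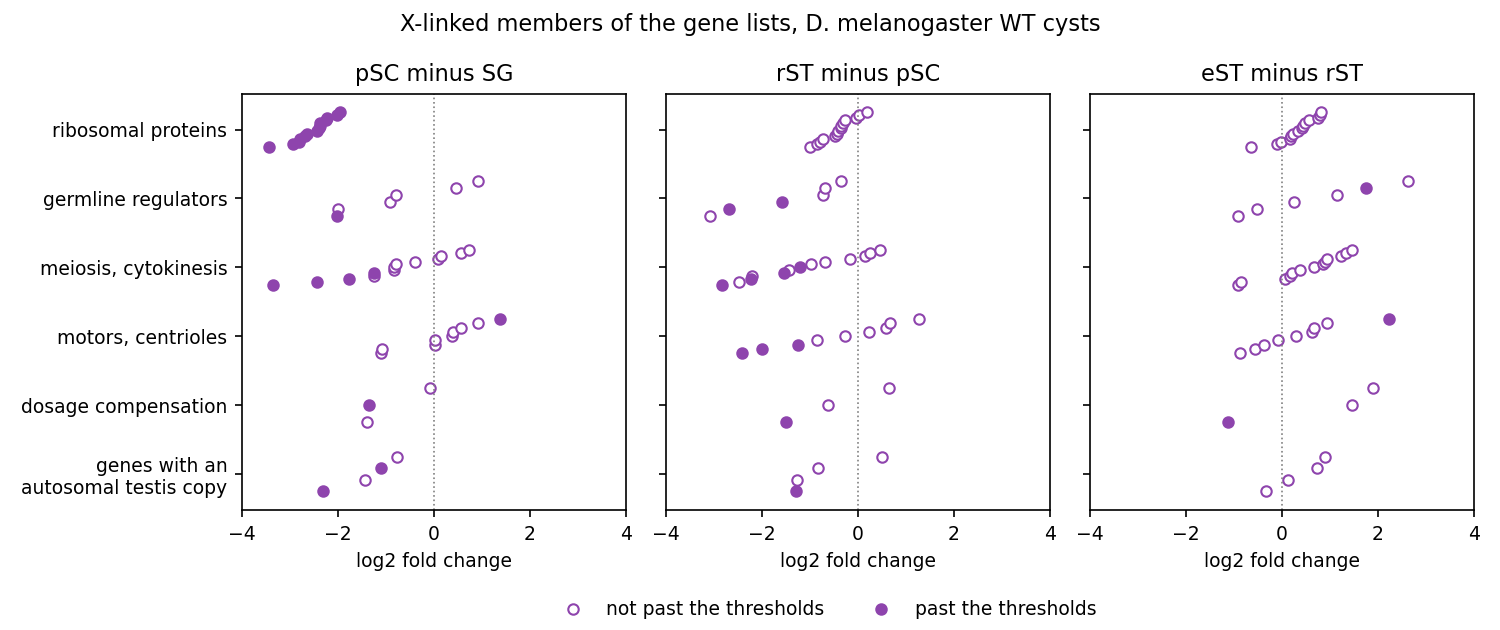
The log2 fold change (x axis) of each X-linked member of 6 gene lists (y axis) is plotted for the 3 steps in *D. melanogaster* WT cysts, and filled points passed both thresholds. The 14 ribosomal protein genes lie between -3.43 and -1.96 at pSC minus SG and around 0 in the later steps.

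The Stellate genes, a repeated family on the X whose silencing by piRNAs is known in the fly testis, are near-identical copies and their values are uncertain. Of 13 members only Ste12DOR could be tested, and it was called once, at -5.12 for eST relative to rST. The summed FPKM of the family was 9.5 to 82.3 in SG, 25.1 to 249 in pSC, 0.258 to 81.8 in rST and 0 to 2.16 in eST cysts of *D. melanogaster* WT.

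The X genes that rose most at each step, among those whose 2 stages did not overlap, included a pair of neighbouring lncRNAs and a chromatin protein. At pSC relative to SG lncRNA:CR43835 (X:7500443-7501383) had 1697, 2492, 1556, 1476 and 3214 normalized counts in pSC cysts against 503 to 669 in SG cysts, a log2 change of 1.83 (SE 0.36, adjusted p = 0.00061, edgeR with Benjamini-Hochberg adjustment). The neighbouring lncRNA:CR43279 (X:7494544-7495497) rose by 1.81. At rST relative to pSC, CG9689 had 915, 988, 821, 672 and 1389 normalized counts in rST cysts against 222 to 323 in pSC cysts, and rose by 1.88. CG15211, whose exons overlap another gene, rose by 1.78. At eST relative to rST, CG15059 (X:18258551-18259517) had 26946, 15555, 4061, 48478 and 18495 normalized counts in eST cysts against 2004 to 3374 in rST cysts, and rose by 3.06. Ing3, a chromatin protein of the ING family, had 3224, 1851, 366, 2552 and 2088 in eST cysts against 240 to 289 in rST cysts, and rose by 2.92.

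Several of the X genes that fell most had few reads at the later stage. At pSC relative to SG, CG8611 had 14.7, 3.72, 1.86, 0 and 6.06 normalized counts in pSC cysts against 146 to 494 in SG cysts, a log2 change of -5.87 (SE 0.79, adjusted p = 1.4e-05, edgeR with Benjamini-Hochberg adjustment). The lncRNA:CR45523 had 0.888 to 4.68 in pSC cysts against 16.6 to 503 in SG cysts, and 0 in every rST cyst. THADA, at rST relative to pSC, had 0 to 5.04 in rST cysts against 6.22 to 75.5 in pSC cysts, and fell by 3.21. At eST relative to rST, Es2, a spliceosome-associated protein, had 51.3 to 532 in eST cysts against 617 to 2370 in rST cysts, and fell by 2.59. Its exons overlap another gene. CR46447 had 0 to 56.3 in eST cysts against 64.2 to 143 in rST cysts.

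In *D. simulans* WT the ranges were wider. FBgn0188637 had 0, 0, 0, 3.6 and 0 normalized counts in pSC cysts against 303 to 1205 in SG cysts. FBgn0188148 had 0 in all 5 pSC cysts against 13.5 to 1152 in SG cysts, which at a floor of 3 counts per library was at least 85.1-fold lower. That bound rests on SG replicate 4 with 1152 counts, and without it was 25.3-fold, while 4 of the 6 SG cysts had 34.5 counts or fewer. At pSC relative to SG, FBgn0269310 had 169, 86.1, 279, 86.3 and 77 in pSC cysts against 0 to 19.9 in SG cysts, a log2 change of 4.15 (SE 0.80, adjusted p = 0.00021, edgeR with Benjamini-Hochberg adjustment). Without SG replicate 2 the changes at pSC were -9.90 for FBgn0188637 and 3.88 for FBgn0269310. At eST relative to rST, FBgn0269166 had 84.4 to 5180 in eST cysts against 1 to 18.7 in rST cysts, and rose by 7.91.

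The X genes with the highest FPKM were not the same at every stage. In *D. melanogaster* WT SG cysts lncRNA:CR40469 averaged 4518 ± 1420 FPKM and lncRNA:CR34335 averaged 4182 ± 1286 FPKM (SD, n = 6), which ranked 1 and 2 among all genes of X, 2L, 3L and 3R. Their values ran in parallel over the stages, so that they may share reads. TrxT, a thioredoxin of the male germline, averaged 290 FPKM in SG, 725 in pSC, 610 in rST and 1335 in eST cysts and 706 in testes. It rose at pSC relative to SG by 1.41 and at eST relative to rST by 1.83, and at 1335 ± 657 FPKM (SD, n = 5) was the first X gene of eST cysts. CG1324 was among the 3 leading X genes at pSC (808 FPKM), rST (885 FPKM) and eST (1192 FPKM). In testes the 3 leading X genes were lncRNAs, CR32658 at 1936 ± 137, CR32661 at 1253 ± 22.4 and CR32652 at 1156 ± 36.1 FPKM (SD, n = 3). The spermatid gene r-cup, which is X-linked, rose at eST relative to rST by 2.82.

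No difference between genotypes in the X to autosome ratio of testes passed a test. The means were -0.28 in *D. melanogaster* KO, -0.25 in the replacement line and -0.29 in *D. melanogaster* WT testes, and -0.42 in both *D. simulans* KO and *D. simulans* WT testes. The differences from WT were 0.01 for *D. melanogaster* KO, 0.03 for the replacement line and -0.01 for *D. simulans* KO (exact p = 0.9, 0.1 and 0.7), where 3 against 3 libraries cannot give an exact p below 0.1. Of the 15 comparisons of genotypes over stages and testes, 1 passed: SG cysts of the replacement line were higher than those of WT by 0.24 (exact p = 0.0022, adjusted p = 0.032). The replacement SG cysts averaged -0.01 and 1 of them, replicate 1, was at 0.38. Without it the difference was 0.14, and leaving out any 1 library of that comparison gave an adjusted p of 0.071 to 0.12. The call also depended on the genes counted. By the same exact test the difference was 0.534 with no filter (adjusted p = 0.13) and 0.147 with a mean of 1 FPKM over all WT libraries (adjusted p = 0.23). Protein-coding genes alone gave 0.143 (adjusted p = 0.087), and genes at 1 FPKM or more in a library gave -0.103 (adjusted p = 0.17). A pseudocount and upper quartiles kept the call. The accessory gland list summed to 24.6 to 82.3 FPKM in replacement SG cysts against 300 to 1533 FPKM in WT SG cysts, and its part in that difference was not tested.

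Few X genes changed in testes of the *D. melanogaster* KO. Of 1951 X genes tested, 9 rose and 16 fell in KO testes relative to WT, 1.28%, against 6.1% of autosomal genes and a background of 5.15% over 12845 genes. In replacement testes 39 rose and 71 fell relative to WT (5.64%, against 8.29% of autosomal genes and a background of 7.67%), and 47 rose and 78 fell relative to KO (6.41%, against 6.46% and a background of 6.18%). In *D. simulans* KO testes 47 of 1953 X genes rose and 71 fell relative to WT (6.04%, against 11.7% of autosomal genes and a background of 10.2% over 12554 genes). One *D. melanogaster* KO testis library held accessory gland RNA, a summed 267 FPKM where the WT testes had 6.25 to 7.31. Within 1 Mb of the mir-983 pair (X:4368309-4368581), 0 of 142 tested genes were called in *D. melanogaster* KO relative to WT, and 3 of 142 in replacement relative to WT. Within 2 Mb the calls were 2 and 13 of 309. Since each genotype is 1 line, changes from the background of a line and from mir-983 cannot be told apart.

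RabX2 (X:10417429-10418219), a small GTPase of the Rab family, had the largest change among X genes in KO testes. It had 0, 0 and 0 normalized counts in KO testes against 95.8, 118 and 86.9 in WT testes, at least 33.5-fold lower at a floor of 3 counts per library. Replacement testes had 193, 158 and 214. WT cysts of 1 stage were far apart in RabX2. In WT SG cysts it had 57.7, 31.8, 46.2, 42.5, 0.0317 and 0 FPKM, and in WT pSC cysts 45.4, 0.367, 0.321, 86 and 1.75 FPKM. In WT rST and eST cysts 1 of 5 was high (74.6 and 23.2 FPKM), and the others were at 0.386 FPKM or less. KO cysts were all at 0.308 FPKM or less, which overlaps the low WT cysts. All replacement cysts but 1 lay between 4.5 and 114 FPKM, and SG replicate 1 had 0.27 FPKM.

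**Figure D5:**
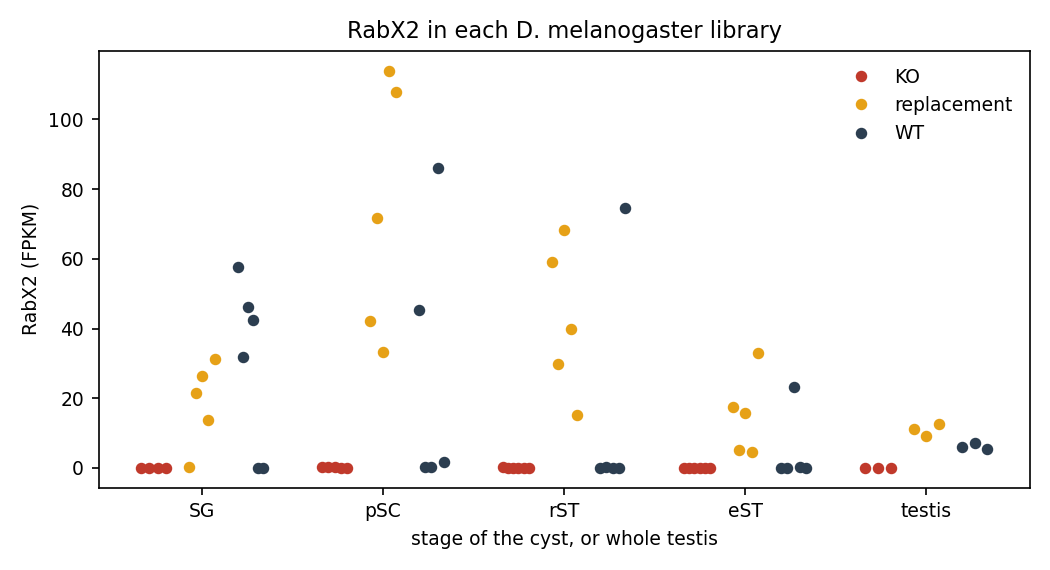
RabX2 FPKM (y axis) is plotted for each *D. melanogaster* library by stage and for testes (x axis), coloured by line. KO libraries lie at or near 0 throughout, replacement libraries are above 4 FPKM except 1 SG cyst, and WT cysts split into high ones and ones near 0.

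Other X genes with large changes in testes were near 0 in 1 line. CG9518, a predicted oxidoreductase, had 9.63, 5.56 and 6.56 normalized counts in KO testes against 156, 146 and 99.3 in WT testes, a log2 change of -4.19 (SE 0.26, adjusted p = 9.9e-08, edgeR with Benjamini-Hochberg adjustment). CG44426 had 0 in all 3 replacement testes against 41.9, 55.1 and 40.6 in WT testes, at least 15.3-fold lower. CG32640 had 0 counts in replacement testes against 25.1, 24.9 and 16.9 in WT testes. Its FPKM was however 2.19 to 3.26 in replacement testes, so a near-identical copy may take its reads and its loss is uncertain. The lncRNA:CR44534 had 0 in replacement testes against 35.3, 65.6 and 36.5 in KO testes. In *D. simulans*, FBgn0195978 had 538, 604 and 632 in KO testes against 0, 1.1 and 1.74 in WT testes, and FBgn0269861 had 0 in KO testes against 26.4, 51.6 and 50.5 in WT testes.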

How the data were processed

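Members and gene lists were chosen with earlier results of these data known. The authors trimmed reads (Trimmomatic 0.36), mapped them with HISAT2 2.2.0 to *D. melanogaster* r6.36 or *D. simulans* r2.02, and deposited FPKM per gene (StringTie 2.1.4) and unstranded read counts per gene (HTSeq 0.6.0). Without strand, reads of overlapping genes cannot be told apart; exons of 779 *D. melanogaster* X genes overlap another gene. FPKM gave levels and ratios. Counts were tested with edgeR 4.0.16 (TMM, quasi-likelihood, R 4.3.3) over genes whose group mean exceeded 5 normalized counts in some group, all 4 WT stages or all testes of a species in 1 fit. The fits were tested on simulated data. Calls needed an adjusted p under 0.05 and a log2 change past 1. Library totals set the precision, and p-values measure the spread between cysts or testis pools of 1 line. Named genes were the 2 that rose and 2 that fell most per step among calls without overlap and with a mean of at least 50 normalized counts, the 3 highest per stage, the 2 largest testis changes per contrast, and list members; for *D. simulans*, whose genes have no names here, fewer are printed. Same-numbered samples did not deviate together, so replicate numbers were not used for pairing. Alternatives covered DESeq2 1.42.0, filters, pseudocount and single libraries. Sequences were not used here.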

Additional observations from a re-analysis of the deposited data

Results flagged for a closer look

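Among 40 groups and measures of 4 to 10 libraries examined for a library far from the others, 2 stood out, as many as chance gives at about 1 in 20. The X share of summed FPKM was 9.51% in *D. simulans* WT rST replicate 5, below the other 4 rST cysts. It was 10.9% in *D. simulans* KO pSC replicate 1, below the other 4 pSC cysts of that line.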

How the results depend on the processing

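Over 71 named genes and steps, 1070 alternatives kept direction and side of the threshold, 62 lost the call and 0 reversed. The cause of each change below was not tested. Ratios are log2 X to autosome values.

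With genes kept only at 1 FPKM or more in a library, pSC minus SG was -0.0698 in *D. melanogaster* WT, 0.107 in KO, 0.144 in replacement, 0.0399 in *D. simulans* WT and 0.06 in *D. simulans* KO, and rST minus pSC was 0.145, 0.163, 0.186 and 0.0245 in the first 4 of these lines. The step eST minus rST was -0.0288 in *D. melanogaster* KO and -0.0904 in replacement. Differences of *D. melanogaster* KO from WT were -0.0934 (SG), 0.0834 (pSC), 0.101 (rST) and -0.0144 (eST), those of replacement from WT were -0.103 (SG) and -0.0251 (eST), and that of *D. simulans* KO from WT was 0.00199 (pSC). WT levels were -0.173 (rST), -0.0864 (eST) and -0.421 (testis) in *D. melanogaster*, and -0.502, -0.462, -0.437, -0.177 and -0.5 (SG, pSC, rST, eST, testis) in *D. simulans*.

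With no filter, pSC minus SG in *D. melanogaster* WT was -0.313, replacement minus WT at pSC -0.00737, and *D. simulans* KO minus WT 0.0759 (SG) and 0.00994 (testis). Levels were -1 (rST) and -0.175 (testis) in *D. melanogaster* WT, and 0.0921, -0.596, -0.664, -0.415 and -0.0401 (SG, pSC, rST, eST, testis) in *D. simulans* WT. With a mean of 1 FPKM over all WT libraries, *D. simulans* KO minus WT was 0.0114 (SG) and 0.000123 (eST), and testis levels were -0.312 in *D. melanogaster* and -0.46 in *D. simulans*. Protein-coding genes alone gave -0.513 (SG), -0.888 (rST) and -0.464 (testis) in *D. melanogaster* WT.

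A pseudocount of 1 FPKM gave 0.00777 for *D. melanogaster* KO minus WT at rST, levels of -0.611 (rST), -0.452 (eST) and -0.253 (testis) in *D. melanogaster* WT, and -0.77, -0.418 and -0.372 in *D. simulans* WT. Upper quartiles gave 0.0535 for pSC minus SG in *D. melanogaster* WT, testis differences from WT of -0.0105 in *D. melanogaster* KO and -0.0424 in replacement, and *D. simulans* KO minus WT of 0.0357 (SG), -0.0352 (rST) and 0.00312 (testis). Their levels were -0.496 (SG), -0.603 (rST) and -0.307 (testis) in *D. melanogaster* WT, and -0.547 (SG) and -0.619 (testis) in *D. simulans* WT.

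With the replicate number as a block, pSC minus SG was -0.214 in *D. melanogaster* WT and -0.508 in *D. simulans* WT, and eST minus rST in *D. simulans* WT was 0.386, none of them past the threshold (4 pairs in the first of these, 5 in the others, which cannot give an exact p below 0.12 and 0.062). The block gave 0 rises and 102 falls at rST relative to pSC and 156 rises at eST relative to rST in *D. simulans* WT. Deviations of same-numbered samples had a median correlation of 0.016 in *D. melanogaster* and -0.02 in *D. simulans* cysts.

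DESeq2 gave 151 rises at pSC and 82 at rST in *D. melanogaster* WT, and in *D. simulans* WT 17 at rST and 537 at eST, each relative to the stage before. Its size factors in edgeR gave 127, 71, 4 and 440 for the same. Fits of only the 2 stages compared gave 106 rises at pSC, and 109 rises and 99 falls at eST, in *D. melanogaster* WT, and 53 rises and 311 falls at rST in *D. simulans* WT. A filter of 50 normalized counts gave 4 rises at rST in *D. simulans* WT. In testes it gave 5 rises and 9 falls for *D. melanogaster* KO and 22 and 45 for replacement relative to WT, 29 and 48 for replacement relative to KO, and 30 and 41 for *D. simulans* KO relative to WT.

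Leaving out 1 library, pSC minus SG in *D. melanogaster* WT ranged from -0.317 to -0.165, and rST minus pSC from -0.158 to 0.0217 in *D. melanogaster* KO and -0.0184 to 0.0473 in *D. simulans* KO. Differences of *D. melanogaster* KO from WT ranged from -0.00965 to 0.104 (SG), -0.0723 to 0.0123 (rST) and -0.0185 to 0.0359 (testis), of replacement from WT from -0.0175 to 0.174 (pSC) and -0.0261 to 0.0585 (rST), and of *D. simulans* KO from WT from -0.0285 to 0.0367 (SG) and -0.0245 to 0.00358 (testis). The X share in *D. simulans* WT changed by -2.43 to -1.48 (pSC minus SG), -2.55 to -1.59 (rST minus pSC) and 0.646 to 1.02 (eST minus rST) percentage points, and the excess of X genes peaking at eST was -1.12 to 0.0838. Counts in *D. melanogaster* WT were 39 to 94 rises at pSC, 9 to 88 rises and 186 to 492 falls at rST, and 194 to 399 rises and 108 to 249 falls at eST. In *D. simulans* WT they were 0 to 4 rises and 51 to 212 falls at rST, and 167 to 282 rises at eST. The lowest rises at pSC in *D. melanogaster* WT were 39 without SG replicate 2, 44 without SG replicate 1 and 45 without pSC replicate 3.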
